A study of Mus musculus with 5 samples.

Results

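The nuclear genes of the mitochondrial respiratory chain and the ATP synthase were described in 5 RNA-seq libraries of mouse cells. The genes were taken by symbol, as every gene of the deposited tables named Nduf, Sdha to Sdhd, Uqcr, Cox4 to Cox8, or Atp5, which gave 92 of 24421 genes. They are called members below and were sorted by hand into complex I (44 members), complex II (4), complex III (8), complex IV (20), and complex V, the ATP synthase (16). Ndufa4 and its paralogue Ndufa4l2 were placed in complex IV, to which the NDUFA4 protein belongs, and Atp5sl, an older symbol of the assembly factor Dmac2, was placed in complex I. By role, 82 members encode structural subunits, 8 encode assembly factors of complex I, Cox7a2l encodes a factor that joins complexes III and IV, and Atp5s encodes a protein related to the ATP synthase. The 13 protein-coding genes of the mitochondrial genome were looked for by symbol, and 0 were found under the symbols used. They were therefore not analysed here.

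The libraries were 1 each of MEFs (mouse embryonic fibroblasts, from CF-1 embryos), iPSCs (induced pluripotent stem cells, whose cell of origin is not given in the labels), untreated V6.5 (embryonic stem cells of the mouse, an established line), V6.5 cells expressing a non-targeting control shRNA (NTC), and V6.5 cells expressing an shRNA against Gldc (shGldc), the glycine decarboxylase of the glycine cleavage system. Per the labels, the pluripotent cells were grown without feeders on gelatin with LIF, serum replacement, and a little fetal bovine serum, and MEFs in fetal bovine serum without LIF, so cell type and medium cannot be told apart. The label of the knockdown library does not say which hairpin it carried. Its column of values is headed sh3 and was matched to the label as the only hairpin column beside NTC. The first 3 libraries stand in 1 table and the last 2 in another, made separately, and with 1 library per condition no difference below has a replicate check or a p-value.

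The respiratory chain takes electrons from NADH at complex I and from succinate at complex II, passes them through ubiquinone to complex III, through cytochrome c to complex IV, and on to oxygen. Complexes I, III, and IV pump protons across the inner mitochondrial membrane, and complex V uses the gradient to make ATP. Several subunits of complex IV exist as a common isoform and as isoforms bound to muscle, lung, or testis, and pluripotent stem cells are known for relying strongly on glycolysis.

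The sequences that bear on the results are the promoters of the isoform pairs that differed most between libraries and the windows of a shared motif. RefSeq promoters (GRCm38.p6, 250 bases before to 50 after the start of transcription) were found for 76 of the 92 members. The 250 bases before the start are printed for both members of the Cox7a and Cox6b pairs, 5′ to 3′ on the strand of the gene, with each CG dinucleotide in capitals. Cox7a1 lies on the plus strand (chr7:30183921-30184170), and Cox7a2 (chr9:79759854-79760103), Cox6b1 (chr7:30626115-30626364), and Cox6b2 (chr7:4753095-4753344) lie on the minus strand.
Cox7a1: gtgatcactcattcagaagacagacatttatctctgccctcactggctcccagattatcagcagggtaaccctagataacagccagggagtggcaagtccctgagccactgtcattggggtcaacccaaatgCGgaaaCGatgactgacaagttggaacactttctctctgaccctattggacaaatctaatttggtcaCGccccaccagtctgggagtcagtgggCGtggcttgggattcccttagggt
Cox7a2: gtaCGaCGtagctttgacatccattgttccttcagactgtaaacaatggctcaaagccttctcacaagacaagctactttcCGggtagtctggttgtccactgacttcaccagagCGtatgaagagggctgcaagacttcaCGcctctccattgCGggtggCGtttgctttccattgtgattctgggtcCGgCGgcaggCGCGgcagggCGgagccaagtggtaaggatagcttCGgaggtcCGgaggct
Cox6b1: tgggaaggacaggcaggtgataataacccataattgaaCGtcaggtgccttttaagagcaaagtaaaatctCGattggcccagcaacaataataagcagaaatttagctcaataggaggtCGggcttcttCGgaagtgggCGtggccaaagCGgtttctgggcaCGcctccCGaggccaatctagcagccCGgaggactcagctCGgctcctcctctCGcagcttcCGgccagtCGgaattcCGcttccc
Cox6b2: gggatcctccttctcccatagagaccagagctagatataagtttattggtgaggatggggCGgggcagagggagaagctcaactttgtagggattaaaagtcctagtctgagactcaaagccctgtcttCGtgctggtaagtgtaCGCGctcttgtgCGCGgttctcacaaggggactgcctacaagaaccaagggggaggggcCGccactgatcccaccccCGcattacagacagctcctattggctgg
The muscle isoform Cox7a1 had 4 CG dinucleotides in these 250 bases, and the common isoform Cox7a2 had 14. The testis isoform Cox6b2 had 8, and the common isoform Cox6b1 had 14. The median was 15 over the members, 17 over the 10155 genes with a promoter and an FPKM of at least 1 in any library, and 6 over all 27025 genes with a promoter. All 4 promoters lay under the medians of the members and of the expressed genes. In the Cox7a and Cox6b pairs the alternative isoform had fewer CG dinucleotides than its common counterpart. Other isoforms went both ways, with 9 in the alternative Cox7b2 and 5 in the common Cox7b, and 1 in Cox8b and 11 in Cox8a.

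NRF1 is a transcription factor known for binding promoters of respiratory genes. Its core CGCATGCG, which reads the same on both strands, was found in the 300-base promoters of 11 of the 76 members (14.5%), against 4.25% of the expressed genes and 2.07% of all genes. The windows of 5 of them, one each from complexes I and IV and 3 from complex V, are given with the core in capitals. They lie at chr17:56717692-56717721 (Ndufa11, plus strand), chr5:115349101-115349130 (Cox6a1, minus), chr15:102671070-102671099 (Atp5g2, minus), chr5:108434430-108434459 (Atp5k, minus), and chr16:84835105-84835134 (Atp5j, minus).
Ndufa11: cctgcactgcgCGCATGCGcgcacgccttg
Cox6a1: caggaacggggCGCATGCGcgctctcgctc
Atp5g2: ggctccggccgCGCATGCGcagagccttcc
Atp5k: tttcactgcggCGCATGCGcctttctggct
Atp5j: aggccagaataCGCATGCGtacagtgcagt
With 1 free base (CGCNTGCG, both strands, which includes the core) the motif was found in 29 members (38.2%), against 19.0% of the expressed genes and 9.22% of all genes. The GABPA motif CCGGAAG was found in 17 members (22.4%, against 19.2% and 9.93%), the YY1 motif AAGATGGC in 11 (14.5%, against 5.11% and 3.19%), and the motif TGACCTTG of the estrogen-related receptors in 4 (5.26%, against 1.43% and 1.76%), all searched on both strands. A match is a description of these letters and was not tested as a binding site.

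Members were among the more abundant transcripts of every library. FPKM, fragments per kilobase of transcript scaled to the mapped fragments of the library, allows levels to be compared between genes. The median level of the members was 87.9 FPKM in MEFs, 124 in V6.5, 141 in iPSCs, 109 in NTC, and 127 in shGldc, against 9.85 to 10.4 for all genes with an FPKM of at least 1. Between 88 and 90 members reached an FPKM of 1 in each library, and between 75 and 83 reached 10. The catalytic beta subunit of the ATP synthase, Atp5b, and Cox4i1, the common isoform of subunit 4 of complex IV, were within the 100 most abundant genes of all 5 libraries. Cox8b, a muscle isoform, was listed at 0 in all 5.

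**Figure D1:**
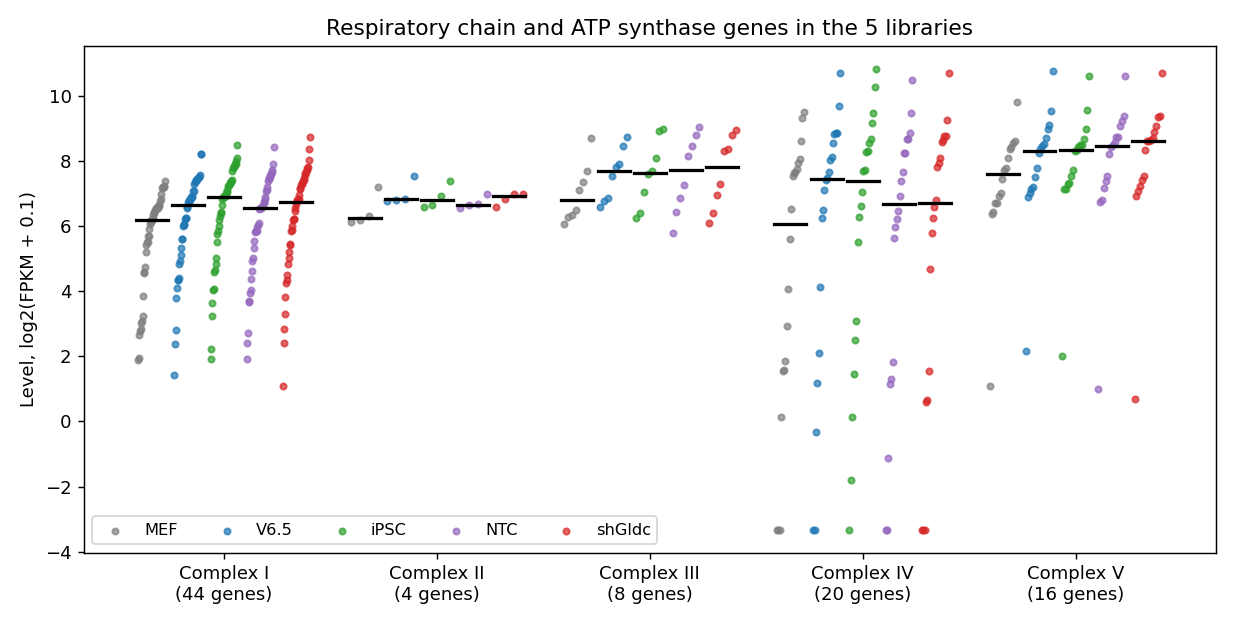
Levels of the 92 members on the log2(FPKM + 0.1) scale, 1 point a gene, grouped by complex and coloured by library, with the median of each group as a black line. Genes listed at 0 sit on the lowest line, and all of them belong to complex IV, whose members spread the most.

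The members together held 2.53% of the summed FPKM in MEFs, 3.38% in V6.5, 3.50% in iPSCs, 3.39% in NTC, and 3.57% in shGldc. MEFs were the lowest of the 5 libraries in each of the 5 complexes. Complex IV held 0.695% in MEFs and 0.913% to 1.13% in the 4 pluripotent libraries, and complex V held 0.823% in MEFs and 1.03% to 1.24% in the others. Complex I held 0.662% in MEFs and 0.809% to 0.937% in the others, complex III 0.267% and 0.318% to 0.383%. For complex II the gap was smaller, with 0.0790% in MEFs and 0.0802% to 0.0946% in the others. Without the 24 members that share at least 10% of their 50-nt stretches with other genes, the total was 1.60% in MEFs and 2.06% to 2.22% in the others, and MEFs remained the lowest. This alternative was chosen after seeing the data.

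**Figure D2:**
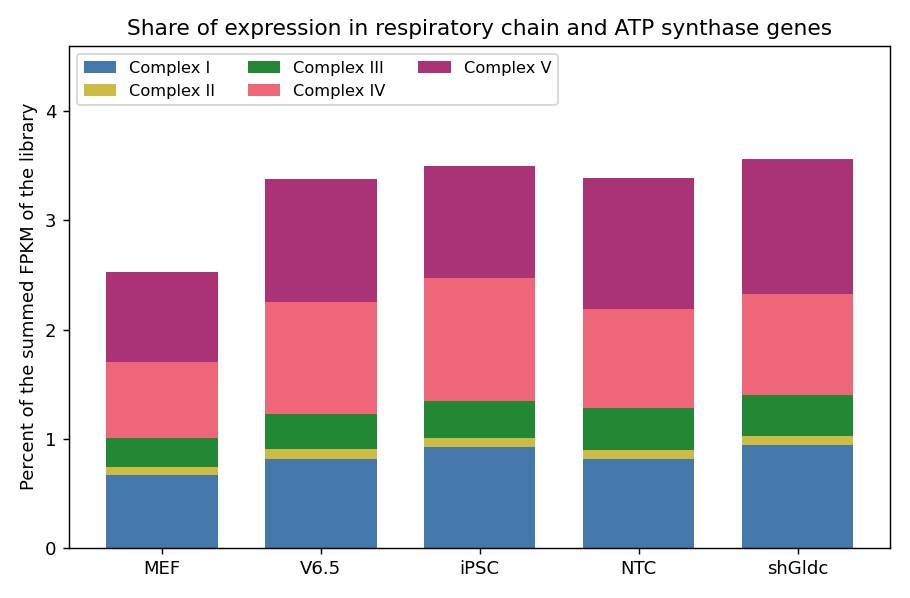
Percent of the summed FPKM of each library that falls on the members of complexes I to V, stacked. The total is 2.53% in MEFs and between 3.38% and 3.57% in the 4 pluripotent libraries, a range across 2 separately made tables.

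MEFs carried the lowest level of a member far more often than the highest. Among the 91 members with an FPKM of at least 1 in any library, MEFs lay below all 4 pluripotent libraries for 65, against 44.1% of all 13656 such genes, and above all 4 for 2, Ndufaf4 and Cox6a2, against 30.7% of all genes. Those 65 were 34 members of complex I, 3 of complex II, 5 of complex III, 12 of complex IV, and 11 of complex V. This count sets the tables side by side, and the pluripotent libraries of 1 line are not independent.

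The comparison of V6.5 cells with MEFs asks how pluripotent and somatic cells differ. Differences are in log2(FPKM + 0.1), on which low genes differ by less than in FPKM. Of the 90 members that reached 1 FPKM in V6.5 or MEFs, 81 were higher in V6.5, against 56.4% of all 12840 genes, and the median difference was 0.56. All genes together had a median difference of 0.25, and 70 of the 90 members lay above it. By transcript length, the median was 0.60 over 44 members under 700 nt and 0.55 over 46 longer ones. Other genes with 1 annotated transcript had 1.42 over 65 genes under 700 nt and 0.26 over 1063 longer ones. Short members thus lay below other short genes, and the part of transcript length was not tested. At least 2-fold higher were 23 members (22 without Cox8c, which was listed at 0 in MEFs), against 30.3% of all genes, so this share (25.6%) was not above the background. At least 2-fold lower was 1, Cox6a2, which was listed at 0 in V6.5, against 23.3% of all genes. The members thus lay higher by a modest amount, with almost no large difference downwards. After each library was rescaled to the same FPKM sum, 13 members remained at least 2-fold higher, and centring the differences on the all-gene median also left 13. The centred median of the members was 0.31.

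In iPSCs against MEFs, a comparison that uses the same MEF library, the median difference was 0.74 over 90 members, and 83 of them were higher, against 58.4% of all 13032 genes. The median of all genes was 0.31, and 70 members lay above it. Members under 700 nt had a median of 0.77 and longer ones 0.68. Other genes with 1 annotated transcript had 1.33 and 0.55, and the part of transcript length was not tested. At least 2-fold higher were 30 members (29 without Cox7b2, listed at 0 in MEFs), against 31.5% of all genes, and none was at least 2-fold lower, against 21.3%. Rescaling to the same FPKM sum left 15 at least 2-fold higher, and centring left 16.

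The MEF library held transcripts of another cell type. Its 8 macrophage markers summed to 313 FPKM (Lyz2 142, C1qa 52.7, Ptprc 0.65), whereas the sum was 11.0 to 20.9 in the pluripotent libraries, of which Cd68 made up 9.04 to 19.9. The 8 fibroblast markers summed to 6918 FPKM in MEFs and to 51.1 in V6.5, 25.4 in iPSCs, 13.5 in NTC, and 9.11 in shGldc. The 8 pluripotency markers summed to 3.15 FPKM in MEFs and to 3678 or more in the other libraries, as the labels say. The part of these cells in the differences from MEFs was not tested, and in bulk RNA fewer cells of a type and less RNA per cell cannot be told apart.

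Complex IV showed the largest median difference of the 5 complexes in both comparisons, 0.99 in V6.5 and 1.02 in iPSCs against MEFs, over 18 members each. These members include alternative isoforms and Cox7a2l, which lay at 1.96 or more in V6.5 and 1.22 or more in iPSCs, except Cox6a2 (-4.88 and -0.11). The rest ranged from -0.03 (Cox6b1) to 1.28 (Cox5a) in V6.5 and from -0.35 (Cox6b1) to 1.32 (Cox4i1) in iPSCs. No median was taken over the rest alone. The other medians in V6.5 were 0.55 for complex I, 0.54 for complex II, 0.62 for complex III, and 0.54 for complex V. In iPSCs they were 0.64, 0.36, 0.41, and 0.68, of which those of complexes II and III lay within 0.10 of the median of all genes.

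**Figure D3:**
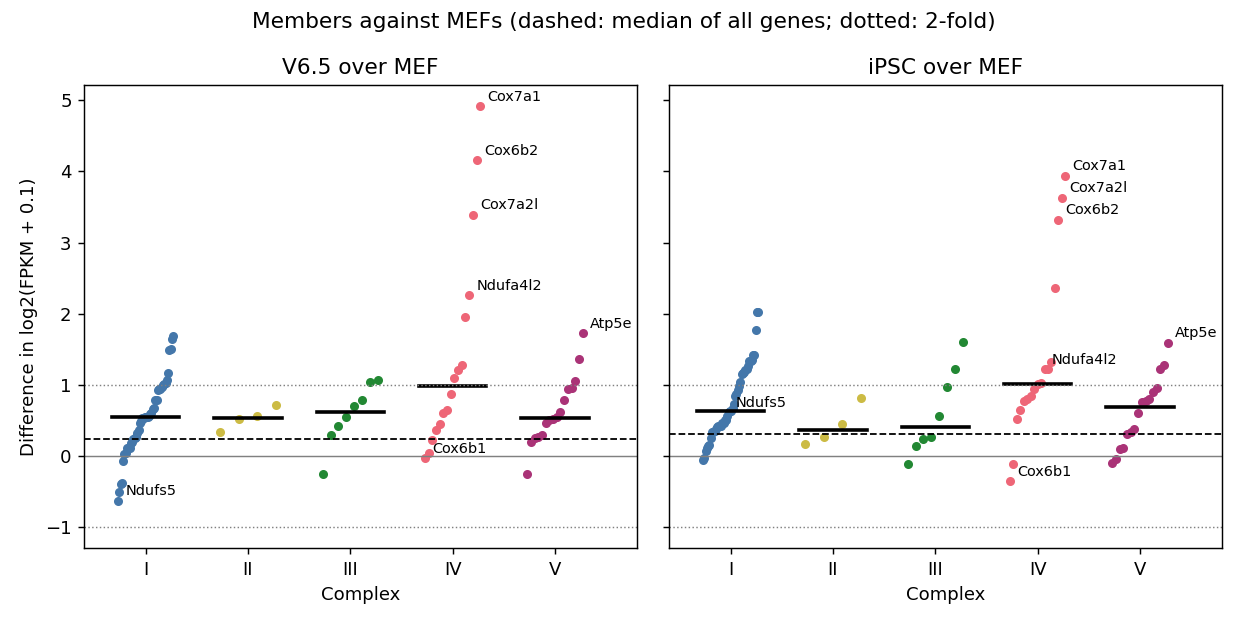
Difference of each member from MEFs in log2(FPKM + 0.1), in V6.5 (left) and iPSCs (right), by complex, with the median of the drawn members as a black line, the median of all genes dashed, and 2-fold differences dotted. Members listed at 0 in either library are not drawn. Most points lie above the median of all genes, and Cox7a1, Cox6b2, and Cox7a2l stand apart in complex IV.

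Alternative isoforms of complex IV were among the members with the widest differences from MEFs. Cox7a1, the heart and muscle isoform of subunit 7a, had 2.88 FPKM in MEFs, 90.0 in V6.5, 45.5 in iPSCs, 49.4 in NTC, and 75.9 in shGldc. It was lowest in MEFs by a wide gap, 31.3-fold under V6.5 and 15.8-fold under iPSCs, and its MEF level corresponds to about 31.1 fragments. The common isoform Cox7a2 had 91.7 FPKM in MEFs, 169 in V6.5, 132 in iPSCs, 121 in NTC, and 95.7 in shGldc. Cox7a1 therefore made up 3.04% of the Cox7a1 and Cox7a2 FPKM in MEFs, 34.8% in V6.5, 25.7% in iPSCs, 29.1% in NTC, and 44.2% in shGldc. The 8 muscle markers summed to 34.0 FPKM in MEFs and to 1.91 to 4.41 in the pluripotent libraries, with Myl1 listed at 0 in all 5. The MEF sum was mostly Acta1 (26.1) and Tnnt2 (7.10), which, like Actc1 (0.45), were lower in V6.5 and iPSCs, whereas Ckm, Myh3, and Myog, at 0 to 0.09 FPKM in MEFs and at most 1.19 in the others, were higher in V6.5 and iPSCs than in MEFs. The part of muscle-like cells was not tested.

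Cox6b2, the testis isoform of subunit 6b, had 7.60 FPKM in MEFs, 138 in V6.5, 76.8 in iPSCs, 74.1 in NTC, and 25.5 in shGldc. MEFs were again the lowest library, 18.1-fold under V6.5 and 10.1-fold under iPSCs. The common isoform Cox6b1 had 267 FPKM in MEFs, 262 in V6.5, 210 in iPSCs, 304 in NTC, and 270 in shGldc. Along with Cox6a2 and Ndufaf4, Cox6b1 was one of the few members that were not higher in either V6.5 or iPSCs than in MEFs, with differences of -0.03 and -0.35. Cox6b2 made up 2.76% of the pair in MEFs, 34.4% in V6.5, 26.8% in iPSCs, 19.6% in NTC, and 8.62% in shGldc. None of these 4 genes shared a 50-nt stretch with transcripts of other genes.

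The other testis isoforms were low. Cox8c was listed at 0 in MEFs and had 2.17 FPKM in V6.5, 0.19 in iPSCs, 2.37 in NTC, and 1.42 in shGldc, where the iPSC level is about 1.92 fragments and is under the floor of 3. Cox7b2 was listed at 0 in MEFs and shGldc and had 0.70, 1.01, and 0.35 FPKM in V6.5, iPSCs, and NTC. Cyct, the testis form of cytochrome c and no member, was listed at 0 in MEFs and had 28.1 FPKM in V6.5, 68.9 in iPSCs, 8.99 in NTC, and 15.3 in shGldc. The 8 spermatogenic markers summed to 0.68 FPKM in MEFs, 20.2 in V6.5, 72.3 in iPSCs, 14.3 in NTC, and 27.9 in shGldc, with the spermatid kinase Pgk2 at 0 to 0.06. Cyct and the marker sum were highest in iPSCs, although the markers Dazl, Tex101, and Hspa1l were highest in shGldc. Cox6b2 was highest in V6.5, and the part of the marker-bearing cells was not tested.

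Of the isoforms tied to oxygen supply, Cox4i2, the lung isoform of subunit 4, had 1.00 FPKM in MEFs, 4.16 in V6.5, 5.54 in iPSCs, 3.45 in NTC, and 2.79 in shGldc. It made up at most 0.305% of the Cox4 FPKM in any library, next to Cox4i1 at 724 FPKM in MEFs, 1675 in V6.5, 1811 in iPSCs, 1446 in NTC, and 1661 in shGldc. Cox4i1 shared 12.3% of its 50-nt stretches with the neighbouring gene Emc8. Ndufa4l2, a paralogue known to be induced by hypoxia, had 3.53 FPKM in MEFs, 17.3 in V6.5, 8.38 in iPSCs, 2.13 in NTC, and 1.46 in shGldc. Ndufa4l2 was 8.11-fold lower in NTC than in untreated V6.5, across the tables, so its level did not hold within 1 cell line. Ndufa4 itself had 196, 202, 306, 168, and 226 FPKM in the same order. Of 14 hypoxia-induced genes, 6 were higher in V6.5 than in MEFs and 6 in iPSCs, with medians of -0.69 and -0.37, against 56.4% and 58.4% of all genes and medians of 0.25 and 0.31.

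Cox6a2, the muscle isoform of subunit 6a, had 2.84 FPKM in MEFs and 2.62 in iPSCs and was listed at 0 in V6.5, NTC, and shGldc. Its common counterpart Cox6a1 had 642 FPKM in MEFs, 825 in V6.5, 1239 in iPSCs, 709 in NTC, and 608 in shGldc. The common isoforms Cox7b (48.6, 76.1, 98.3, 62.1, and 55.0 FPKM in MEFs, V6.5, iPSCs, NTC, and shGldc) and Cox8a (394, 461, 708, 464, and 434) made up 99.0% to 100% of their families. The alternative isoforms thus reached a sizeable share in 7a and 6b but not in 4, 6a, 7b, or 8.

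**Figure D4:**
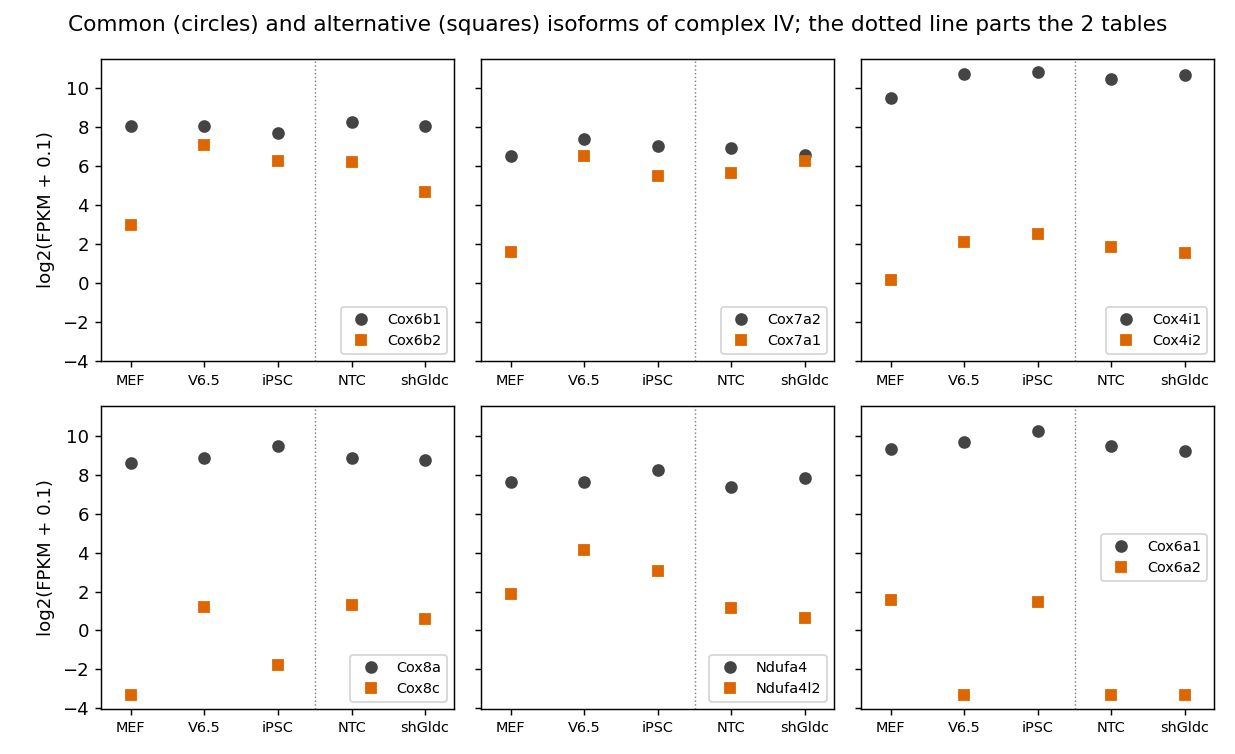
Levels of 6 pairs of complex IV isoforms on the log2(FPKM + 0.1) scale in the 5 libraries, with circles for the common and squares for the alternative isoform and a dotted line between the 2 tables. Cox7a1 reaches 44.2% of its pair in shGldc and Cox6b2 34.4% in V6.5 but 8.62% in shGldc, whereas Cox4i2, Cox8c, and Cox6a2 remain far below their common isoforms.

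Cox7a2l, which encodes a factor that joins complexes III and IV into supercomplexes, had 16.7 FPKM in MEFs, 176 in V6.5, 208 in iPSCs, 87.7 in NTC, and 112 in shGldc. It was 10.5-fold higher in V6.5 and 12.5-fold higher in iPSCs than in MEFs, and the 4 pluripotent libraries differed from each other by smaller folds than from MEFs. It shared 17.8% of its 50-nt stretches with the annotated gene Gm6969, and how the reads of such stretches were assigned is not known.

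In complex I, the 8 assembly factors that the symbol rule takes had a median difference from MEFs of 1.05 in V6.5 and 1.08 in iPSCs, and the 36 subunits had 0.51 and 0.63. The 8 complex I assembly factors outside the rule had 0.54 and 0.31. Atp5sl had the highest difference of complex I in V6.5, with 6.14 FPKM in MEFs, 20.0 in V6.5, 25.2 in iPSCs, 24.3 in NTC, and 22.5 in shGldc. Ndufaf6 had 6.68 FPKM in MEFs, 21.2 in V6.5, 9.24 in iPSCs, 15.1 in NTC, and 20.3 in shGldc, so iPSCs lay nearer to MEFs than to V6.5. Ndufaf4 went the other way, with 3.73 FPKM in MEFs, 2.59 in V6.5, 3.66 in iPSCs, 3.67 in NTC, and 2.04 in shGldc. Exons of Ndufaf2, which had 14.3 FPKM in MEFs and 30.2 in V6.5, overlapped those of B230220B15Rik over 65.6% of their length.

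Among the 7 core subunits of complex I the median difference was 0.49 in V6.5 and 0.42 in iPSCs. Ndufv1, which binds NADH, had 91.5 FPKM in MEFs, 175 in V6.5, 231 in iPSCs, 190 in NTC, and 211 in shGldc, the highest difference from MEFs among the core subunits in both comparisons. Ndufs1, the largest iron-sulphur subunit, had 26.7 FPKM in MEFs, 34.3 in V6.5, 28.1 in iPSCs, 32.6 in NTC, and 36.6 in shGldc.

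The accessory subunit Ndufa7 had the highest difference of complex I in iPSCs, with 67.3 FPKM in MEFs, 188 in V6.5, 273 in iPSCs, 177 in NTC, and 167 in shGldc. Ndufa8 had the lowest there, with 126 FPKM in MEFs, 135 in V6.5, 121 in iPSCs, 118 in NTC, and 155 in shGldc. Ndufs5 had 7.94 FPKM in MEFs, 5.10 in V6.5, 12.2 in iPSCs, 6.53 in NTC, and 7.10 in shGldc. It was the lowest of complex I in V6.5 against MEFs (-0.63) and the highest in iPSCs against V6.5 (1.25). Ndufs5 shared 21.7% of its 50-nt stretches with BC002163, which had 46.2 FPKM in MEFs, 56.2 in V6.5, and 67.2 in iPSCs, and the sum of both genes was higher than in MEFs by 0.18 in V6.5 and by 0.55 in iPSCs.

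Complex II had the smallest median difference from MEFs of the 5 complexes in iPSCs. Sdha, the flavoprotein that oxidises succinate, had 69.5 FPKM in MEFs, 114 in V6.5, 122 in iPSCs, 94.1 in NTC, and 113 in shGldc, the highest difference of the complex in both comparisons. Sdhb, the iron-sulphur subunit, had the lowest, with 147, 186, 166, 127, and 127 FPKM in the same order, so NTC and shGldc lay under MEFs. The membrane anchors Sdhc (78.6, 112, 95.0, 101, and 96.6 FPKM) and Sdhd (73.2, 108, 100.3, 99.8, and 127 FPKM) were lowest in MEFs.

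In complex III, Uqcrc1, a core protein of the matrix side, had 207 FPKM in MEFs, 426 in V6.5, 485 in iPSCs, 528 in NTC, and 490 in shGldc. It was at least 2.05-fold higher in both pluripotent libraries of its table than in MEFs. Uqcrfs1, the Rieske iron-sulphur protein, had 81.7 FPKM in MEFs, 109 in V6.5, 75.5 in iPSCs, 116 in NTC, and 124 in shGldc, so MEFs lay between iPSCs and the V6.5 libraries. Uqcrh, the hinge protein, had the highest difference in V6.5 (89.2, 186, 132, 153, and 158 FPKM in MEFs, V6.5, iPSCs, NTC, and shGldc). Uqcrb had the highest in iPSCs (67.2, 116, 204, 54.8, and 68.2 FPKM) but shared 43.4% of its stretches with other genes. Uqcrq had the lowest in V6.5 (421, 352, 505, 442, and 441 FPKM). Cyc1, the cytochrome of complex III that the symbol rule leaves out, had 136 FPKM in MEFs, 334 in V6.5, 342 in iPSCs, 381 in NTC, and 415 in shGldc.

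Cox5a, a nuclear subunit of complex IV with no second isoform, had 185 FPKM in MEFs, 449 in V6.5, 317 in iPSCs, 406 in NTC, and 432 in shGldc, and shared 32.0% of its stretches with other genes. It was 2.43-fold higher in V6.5 and 1.71-fold higher in iPSCs than in MEFs.

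In the ATP synthase, both subunits of the catalytic head were higher in V6.5 and iPSCs than in MEFs by nearly the same amount. Atp5a1, the alpha subunit, had 388 FPKM in MEFs, 745 in V6.5, 752 in iPSCs, 670 in NTC, and 655 in shGldc. Atp5b had 894 FPKM in MEFs, 1743 in V6.5, 1563 in iPSCs, 1549 in NTC, and 1680 in shGldc. The differences from MEFs lay between 0.81 and 0.96 for both genes in both comparisons. Atp5e, the epsilon subunit of the central stalk, had the highest difference of the complex in both, with 105 FPKM in MEFs, 349 in V6.5, 318 in iPSCs, 343 in NTC, and 395 in shGldc. The 4 peripheral stalk members had medians of 0.28 in V6.5 and 0.49 in iPSCs. The lowest members were Atp5l, a membrane subunit (174, 146, 187, 166, and 185 FPKM in MEFs, V6.5, iPSCs, NTC, and shGldc), which shared 84.8% of its stretches with other genes, and Atp5d, the delta subunit (345, 413, 322, 423, and 399.7 FPKM).

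Atp5g1, Atp5g2, and Atp5g3 encode the same mature subunit of the c ring behind different targeting sequences. Atp5g1 had 86.6 FPKM in MEFs, 222 in V6.5, 211 in iPSCs, 360 in NTC, and 392 in shGldc, lowest in MEFs. Atp5g2 had 330, 507, 409, 533, and 541 FPKM, and Atp5g3 had 372, 545, 360, 603, and 671 FPKM, in the same order. Atp5g1 made up 11.0% of the 3 in MEFs and 17.4% in V6.5, 21.6% in iPSCs, 24.0% in NTC, and 24.5% in shGldc. Atp5g2 shared 38.3% and Atp5g1 11.1% of their stretches with other genes.

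The same comparison was made for genes around the chain, from lists written by hand. Of 13 genes that transcribe and maintain mitochondrial DNA, 12 were higher in V6.5 than in MEFs (median 1.12) and 11 in iPSCs (median 0.80), and the highest was Mterf1a and the lowest Tfb2m in both. Tfam, the packaging and transcription factor of this genome, had 6.15 FPKM in MEFs, 18.8 in V6.5, 18.2 in iPSCs, 11.7 in NTC, and 13.0 in shGldc. Of 10 transcription factors and coactivators of respiratory genes, 9 were higher in V6.5 (median 0.81) and 8 in iPSCs (median 0.76), from Esrrb, a pluripotency gene as well, down to Ppard and Yy1. Nrf1, whose motif is shown above, had 5.96 FPKM in MEFs, 11.0 in V6.5, 11.3 in iPSCs, 14.1 in NTC, and 13.8 in shGldc.

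Of 17 electron carrier genes outside the symbol rule, 16 were higher than in MEFs in each comparison (medians 0.86 and 0.91, highest Cyct, lowest Etfdh in V6.5 and Coq4 in iPSCs). Of 14 genes of the TCA cycle, which feeds the chain, 13 were higher in V6.5 (median 0.67, highest Suclg2, lowest Dld) and 11 in iPSCs (median 0.40, lowest Cs). Of 14 genes of outer membrane channels, import, and mitochondrial chaperones, 13 and 12 were higher (medians 0.79 and 0.55, highest Tomm20, lowest Hspa9 and Hspd1). Of 22 assembly factors of complex IV, 18 and 16 were higher (medians 0.41 and 0.35, highest Cox17, lowest Cox20 and Coa5). Of the 8 complex I assembly factors outside the rule, 5 were higher in each. Beside all genes, of which 56.4% and 58.4% were higher with medians of 0.25 and 0.31, this count and the iPSC median of the complex IV assembly factors were near the background.

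The remaining lists were short, and their counts stand against the same shares of all genes. Of 4 assembly factors of complex II, 3 were higher than in MEFs in each comparison (medians 0.34 and 0.39). Of those of complex III, 2 of 5 were higher in V6.5 (median -0.08) and 4 of 6 in iPSCs (median 0.43), and of 4 factors of complex V, 3 in each (medians 0.36 and 0.56). Of 5 genes of uncoupling and of nucleotide and phosphate carriers, 4 were higher in V6.5 (median 0.86) and 2 in iPSCs (median -0.14). The highest was Slc25a31 and the lowest Slc25a4 in both, the latter at -1.86 in iPSCs. Of the 4 hypoxia factors, Hif1a was lowest and Epas1 highest in both comparisons, with 25.7 and 1.66 FPKM in MEFs and 9.09 and 10.7 in V6.5.

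iPSCs and V6.5 cells, both pluripotent, were close in these genes. Of the 91 members that reached 1 FPKM in one of them, 50 were higher in iPSCs, against 52.6% of all 12323 genes, and the median difference was 0.09, next to 0.04 for all genes. At least 2-fold higher in iPSCs were 5, against 10.1% of all genes, and at least 2-fold lower were 3, against 7.44%. The median was -0.03 when the 24 members that share at least 10% of their 50-nt stretches with other genes were left out, so no direction is given for the members as a whole. Transcript length moved with the difference, with a median of 0.24 over 45 members under 700 nt and -0.01 over 46 longer ones, whereas other genes with 1 annotated transcript had -0.05 and 0.18, and its part was not tested.

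By complex, the medians were 0.28 for complex I, -0.14 for complex II, 0.01 for complex III, 0.24 for complex IV (0.18 without Cox6a2), and -0.05 for complex V. The 5 members at least 2-fold higher in iPSCs were Ndufa1, Ndufa12, Ndufb11, Ndufs5, and Cox6a2, of which Cox6a2 was listed at 0 in V6.5. Ndufa12, Ndufb11, and Ndufs5 share 26.2%, 17.5%, and 21.7% of their 50-nt stretches with other genes, and without the members that share at least 10%, an alternative chosen after seeing the data, 2 were left. The 3 at least 2-fold lower were Ndufaf6, Ndufa4l2, and Cox8c. Cox7a1 was 1.98-fold and Cox6b2 1.79-fold lower in iPSCs, each about as far apart as NTC and untreated V6.5, where the folds were 1.82 and 1.86. Atp5h, the d subunit of the peripheral stalk, had the highest difference of complex V (218, 302, 508, 297, and 322 FPKM in MEFs, V6.5, iPSCs, NTC, and shGldc, 36.9% of stretches shared), and Atp5g3 had the lowest.

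NTC and untreated V6.5 cells are of 1 line, and their difference shows how far members move without the Gldc hairpin, although it also holds the step between the tables. Of 89 members, 35 were higher in NTC, against 45.6% of all 12048 genes, and the median was -0.12, next to -0.06 for all genes. The quartiles of the members were -0.29 and 0.12. None was at least 2-fold higher, against 4.99% of all genes, and 5 were at least 2-fold lower, against 10.3%, namely Ndufa6, Uqcrb, Ndufa4l2, Cox7a2l, and Atp5s. With a pseudocount of 1, with structural subunits alone, or without the members that share at least 10% of their stretches (Uqcrb 43.4%, Cox7a2l 17.8%), 3 were.

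The knockdown comparison asks what changes in V6.5 cells when Gldc is reduced, and Gldc had 74.7 FPKM in NTC and 2.07 in shGldc. The members differed little as a whole. Of 89 members, 59 were higher in shGldc, against 52.8% of all 11969 genes, and the median difference was 0.13, next to 0.04 for all genes. The median was 0.12 over 43 members under 700 nt and 0.15 over 46 longer ones. Other genes with 1 annotated transcript had 0.75 over 72 genes under 700 nt and 0.11 over 968 longer ones. Short members thus lay below other short genes, and the part of transcript length was not tested. No member was at least 2-fold higher, against 8.97% of all genes, and 1 was at least 2-fold lower, against 7.68%. At 1.5-fold on the log2(FPKM + 0.1) scale, 5 members were higher (Ndufa3, Ndufa6, Ndufb2, Ndufs4, and Cox7a1), against 17.5%. Ndufa2 was just under the limit at 0.58. These 5 were all lower in NTC than in untreated V6.5, from -0.07 (Ndufa3) to -1.09 (Ndufa6). Of the 5, only Ndufb2 had a shGldc level above the other 3 pluripotent libraries. At 1.5-fold, 3 members were lower (Ndufaf4, Cox6b2, and Cox8c), against 14.9%. The members thus held fewer differences of either size than the genes as a whole. Their median level was 109 FPKM in NTC and 127 in shGldc, against 10.0 and 10.4 for all genes of at least 1 FPKM. The shares were not matched for level. The quartiles of the members were -0.08 and 0.30.

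By complex, the counts stand against the 52.8% of all genes that were higher in shGldc and their median of 0.04. This background was not matched for transcript length. In complex I, 34 of 44 members were higher and the median was 0.22. Of its 36 subunits 31 were higher (median 0.26), among them all 7 core subunits, whereas 3 of the 8 assembly factors were (median -0.06). In complex IV, 7 of 17 members were higher (median -0.10), a count near the share of all genes. The medians of complexes II, III, and V were 0.13, 0.02, and 0.12. In NTC against untreated V6.5 the medians of complexes I and IV were -0.07 and -0.26, next to -0.06 for all genes. With 1 library per condition, the hairpin and the library cannot be told apart. The 8 pluripotency markers, of which 1 was higher in shGldc, had a median of -0.42.

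The member with the largest difference was Cox6b2, at 74.1 FPKM in NTC and 25.5 in shGldc, 2.91-fold lower. Its level in shGldc lay under all 3 other pluripotent libraries, which ranged from 74.1 to 138. Cox7a1 was the highest of complex IV, at 49.4 FPKM in NTC and 75.9 in shGldc, 1.54-fold higher, a level inside the range of 45.5 to 90.0 of the other 3. The testis and the muscle isoform therefore went in opposite directions in this pair of libraries, and Cox6b1 and Cox7a2 were 1.13-fold and 1.26-fold lower.

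The highest of complex I was Ndufs4, an accessory subunit, with 23.8 FPKM in MEFs, 28.4 in V6.5, 45.2 in iPSCs, 20.6 in NTC, and 32.3 in shGldc. The lowest was the assembly factor Ndufaf4, at 3.67 FPKM in NTC and 2.04 in shGldc, or about 229 and 127 fragments. Sdhd and Sdhc were the highest and lowest of complex II, with 0.35 and -0.07. Uqcrb and Uqcrc1 were those of complex III, with 0.32 and -0.11. Atp5j, a peripheral stalk subunit (121, 139, 157, 111, and 136 FPKM in MEFs, V6.5, iPSCs, NTC, and shGldc), was the highest of complex V, and Atp5s the lowest (2.04, 4.34, 3.92, 1.90, and 1.51 FPKM).

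**Figure D5:**
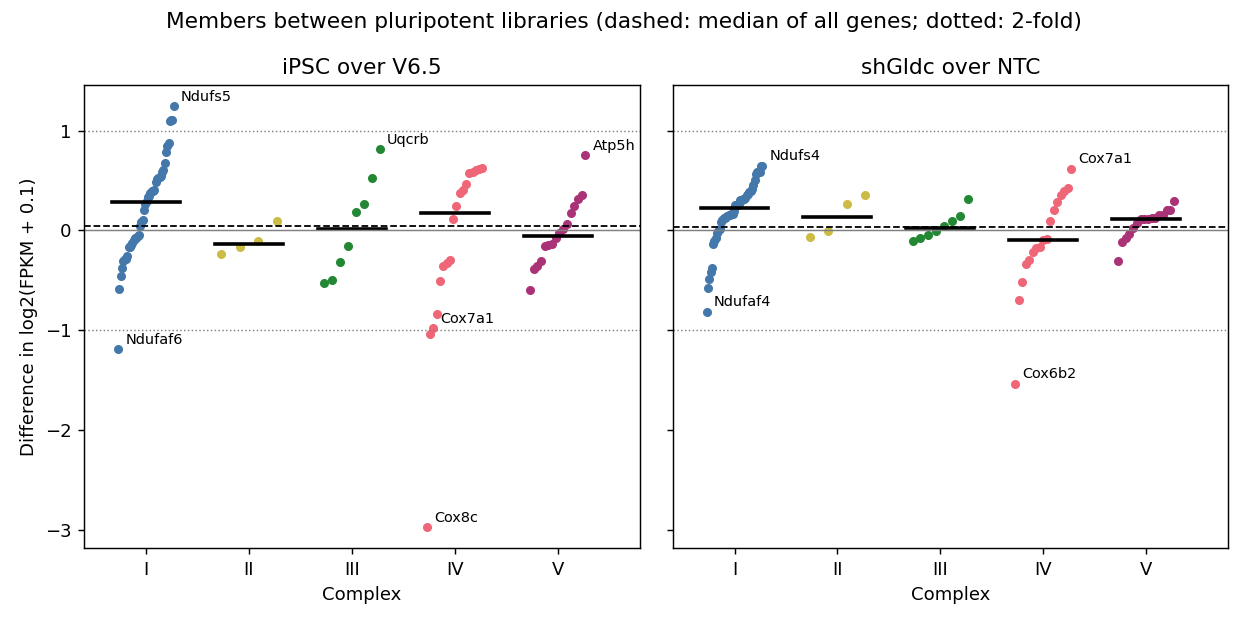
Difference of each member in log2(FPKM + 0.1) between iPSCs and V6.5 (left) and between shGldc and NTC (right), by complex, with the median of the drawn members as a black line, the median of all genes dashed, and 2-fold differences dotted. Members listed at 0 in either library are not drawn. In shGldc against NTC, 1 member, Cox6b2, passes a 2-fold line, and Cox8c in iPSCs rests on fewer than 3 fragments.

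Set beside all 3 other pluripotent libraries, shGldc held the lowest level for 19 of 91 members, against 27.4% of all 13656 genes, and the highest for 23, against 24.9%. In complex IV it was the lowest for 8 of 19 members (Cox4i2, Cox6a1, Cox6b2, Cox7a2, Cox7b, Cox7b2, Cox8a, and Ndufa4l2) and the highest for none. In complex V it was the highest for 7 of 16 members, among them all 3 Atp5g genes, and the lowest for 2, Atp5a1 and Atp5s. In complex I it was the highest for 13 of 44 and the lowest for 7. Of these 4 libraries 3 are V6.5 cells, and the 4 come from 2 tables, so the order mixes cell line, table, and hairpin.

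Around the chain, the counts of genes higher in shGldc than in NTC stand against 52.8% of all genes, with a median of 0.04. Of the assembly factors of complex IV, 18 of 22 were higher (median 0.30, highest Sco2, lowest Cox15), on the other side of 0 from complex IV itself. Of the TCA cycle genes 11 of 14 were higher (median 0.17, highest Idh3b, lowest Sucla2). Near the share of all genes, 9 of 17 electron carriers (median 0.03) and 6 of 13 genes of mitochondrial DNA (median -0.01) were higher. Fewer were higher among import and channel genes, with 4 of 14 (median -0.07), and among transcription factors and coactivators, with 3 of 10 (median -0.12, lowest Ppargc1b).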

How the data were processed

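RNA was sequenced on an Illumina HiSeq instrument. The authors mapped reads to mm10 with TopHat2 2.1.0, assembled transcripts with StringTie 1.3.4d, and computed gene expression with Ballgown. The submitters' processing notes also name SAMtools 1.7 and, without a role, mm9. The gene annotation, strand setting, and filters are not given in the sources used here. FPKM values were deposited as 2 separate tables.

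Differences were taken between log2(FPKM + 0.1) values of 2 libraries, for genes that reached 1 FPKM in either of them. With 1 library per condition no test was run, and differences of at least 2-fold were counted (1.5-fold also for the knockdown), beside the same share over all genes. The members, gene lists, and comparisons were chosen with earlier results of these data known. Genes named with values are the isoforms, the catalytic subunits, Cox5a, and the highest and lowest member of each complex in each comparison. A few others were chosen after their values were seen (Cox7a2l, Ndufaf2, Tfam, Nrf1, Cyc1, Cyct, Gldc, BC002163, and members counted by name). Values are also given for cell type markers and for the highest or lowest gene of some lists (Hif1a, Epas1, and Slc25a4). Positions, transcript lengths, exon overlaps, and shared 50-nt stretches come from GENCODE M21. The step between low values of genes with 1 annotated transcript corresponds to about 24600000 fragments in MEFs, 24700000 in V6.5, 22100000 in iPSCs, and, from only 9 and 14 values, 29000000 in NTC and 28800000 in shGldc. A floor of 3 covers counting error only. Alternatives were a pseudocount of 1 or 0.01, no filter or a minimum of 5 FPKM, rescaling to the same FPKM sum, centring, means, structural subunits alone, and the share without the 10 most abundant genes. The scripts were tested on simulated data and used Python 3.11.15, numpy, pandas, and matplotlib. Some single-gene values are not reported here.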

Additional observations from a re-analysis of the deposited data

Results flagged for a closer look

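The complex I subunit Ndufs5 was lower in V6.5 than in MEFs, by -0.63 on the log2(FPKM + 0.1) scale, and higher in iPSCs than in MEFs, by 0.62, with 1 library each and the MEF library shared. The difference between the 2 pluripotent libraries was not tested. Ndufs5 shares 21.7% of its 50-nt stretches with BC002163, and the sum of both genes, chosen after seeing the data, was higher than in MEFs in both, by 0.18 in V6.5 and 0.55 in iPSCs.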

How the results depend on the processing

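Of 140 alternative values of the medians, counts, and shares, 123 kept their direction and stayed within the spread of the members between NTC and V6.5 (0.30, robust SD) or within 1.5 times the count. Rescaling to the same FPKM sum lowered the count of members at least 2-fold higher than in MEFs from 23 to 13 in V6.5 and from 30 to 15 in iPSCs, and the iPSC median to 0.42. Centring gave 13 and 16, and medians of 0.31 in V6.5 and 0.43 in iPSCs. With a minimum of 5 FPKM, 0 members were at least 2-fold lower in V6.5 than in MEFs, and with no filter 2 were in shGldc against NTC. In NTC against V6.5, 3 were at least 2-fold lower with a pseudocount of 1, with structural subunits alone, and without the members that share at least 10% of their stretches. That last alternative was chosen after seeing the data. It turned the median of iPSCs over V6.5 to -0.030, left 2 members at least 2-fold higher there, and lowered the FPKM shares to 1.60% in MEFs, 2.09% in V6.5, 2.06% in iPSCs, 2.11% in NTC, and 2.22% in shGldc. Summing Ndufs5 with BC002163, also chosen after seeing the data, turned its difference between V6.5 and MEFs to 0.18. The cause of these changes was not tested, apart from the genes and scaling that each alternative sets. Of 1383 alternative values of single genes, 103 moved by more than the spread, mostly under rescaling and centring. No paired analysis was possible because each condition had 1 library. No replicate could be left out for the same reason. The depth limits what can be said of Cox8c, Cox7b2, and Cox6a2.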
